A study of Abies pinsapo with 12 samples.

Results

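The on/off transcripts are those that were absent, or nearly so, from the needles of some Spanish firs (*Abies pinsapo*) and clearly counted in the needles of all the others, with no tree in between. A transcript was taken as on/off when it had at most 2 counts in 2 or more trees and at least 1 CPM (counts scaled by library total and TMM factor) in every other tree, with at least 2 such trees. Of 76481 assembled transcripts, 23352 reached 2 CPM in 2 or more libraries and were tested, and 9 of these met the rule. The 9 transcripts were thus chosen by their measured counts and CPM in all 12 trees, so their on and off levels are a description and carry no test. The colour of the needles was not used to choose them, and the comparison of bluish with green trees was tested in the same 12 trees.

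RNA-seq libraries were made from needles of adult trees growing in the field at Yunquera, Sierra de las Nieves (Spain), where trees of both colours occur. There were 6 libraries from trees with bluish needles and 6 from trees with green needles, 1 library per tree, so that the 6 trees of a colour are the replicates and the spread within a tree was not measured. No treatment was applied. The study gives the same age for green and bluish trees, and their genotypes were not given in the sources used here. The extraction protocol in the labels speaks of roots of pine seedlings, whereas the labels themselves and the study's text say needles. RuBisCO small subunit transcripts with a conifer best hit (ap_2598 and ap_81338), which mark photosynthetic tissue, were counted in all 12 libraries, with sums of 16.9 to 60.2 CPM (bluish) and 13.3 to 31.9 CPM (green). Neither was called by colour. The study reported a further small subunit transcript, not in this list, as lower in bluish trees by RNA-seq and RT-qPCR. As the series holds no root library to compare with, these sums do not decide between the labels and the protocol. Between 64978939 and 91973481 reads per library were counted. A count of 0 allowed up to 6 counts (3 read pairs, since most low counts were even), which corresponds to 0.0695 to 0.0908 CPM depending on the library and covers counting error only.

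A transcriptome assembled without a genome consists of contigs rather than gene models. Alleles, splice forms and close members of a gene family can each appear in such an assembly as a contig of their own, and reads are then divided among them at mapping. Conifers are outcrossing, long-lived trees with very large genomes rich in retrotransposons, mobile elements that copy themselves with a reverse transcriptase, and neighbouring wild trees differ from each other at many loci. The counts cannot tell whether an off tree lacked a gene, carried another sequence of it or did not transcribe it. They also cannot tell fewer cells of a type from less RNA per cell.

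The annotation available for the 9 transcripts was sparse. The study's supplement, as used here, held an entry for 6 of the 9, which was a description for 1, ontology terms for 2 and a note of no database hit for 3. Transcript ap_14392 had as its best hit a fragment of a putative class IV chitinase of Norway spruce (*Picea abies*). Plant chitinases cut chitin, a polymer of fungal cell walls, and belong to the pathogenesis-related proteins. Transcript ap_23494 was listed under response to stress, response to oxidative stress, protein binding and macromolecular complex organization. Oxidative stress responses in plants include the enzymes that remove reactive oxygen species formed, among other places, in illuminated chloroplasts. Transcript ap_5673 was listed under phosphorylation, small molecule metabolism, carbohydrate derivative metabolism, mitochondrion and integral component of membrane. Transcripts ap_14941, ap_24381 and ap_31651 were listed without a database hit, and no annotation was found for ap_10599, ap_72267 and ap_77726.

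**Figure D1:**
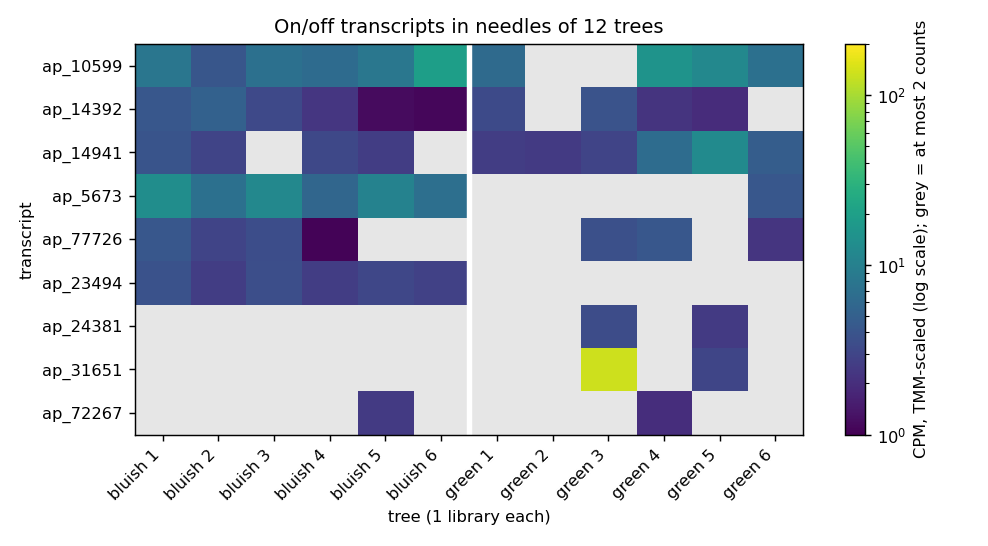
Level of the 9 on/off transcripts (rows) in each of the 12 trees (columns, bluish trees left of the white line), as TMM-scaled CPM on a logarithmic colour scale, with grey cells for at most 2 counts. Transcript ap_23494 is coloured in the 6 bluish trees and grey in the 6 green trees, ap_24381 and ap_31651 are coloured in green trees 3 and 5 only, and the column of green tree 2 holds 1 coloured cell.

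The 9 transcripts in 12 trees gave 108 values, of which 56 were on and 52 were off. Among the off values, 46 were exactly 0, 1 was a single count and 5 were 2 counts. The highest off value was 0.0303 CPM, below what a count of 0 allows, and the lowest on value was 1.06 CPM or 70 counts. Of the 9 transcripts, 3 were on in 10 trees, 2 in 7 trees, 1 in 6 trees and 3 in 2 trees. The 9 transcripts showed 8 distinct patterns over the trees, because ap_24381 and ap_31651 were on in the same trees.

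The number of transcripts that met the rule depended on its limits. With a lower limit of 0.5 CPM for on the rule took 24 transcripts, and with up to 6 counts for off, the most that a count of 0 allows, it took 22. Among the 9, the lowest on levels belonged to ap_77726 with 1.06 CPM and ap_14392 with 1.09 CPM, and these were the members just inside. The nearest transcripts outside were ap_19653, whose lowest level above 2 counts was 0.95 CPM, ap_58534 with 0.94 CPM, ap_90662 with 0.91 CPM, ap_85685 with 0.86 CPM and ap_12805 with 0.83 CPM. A best hit was given for ap_90662, a serine/threonine protein kinase of apple. In all, 212 tested transcripts had at most 2 counts in 2 or more trees and at least 1 CPM in 2 or more trees. The other 203 had at least 1 tree above 2 counts and below 1 CPM. Their lowest level above 2 counts had a median of 0.0803 CPM, which lies within the 0.0695 to 0.0908 CPM that a count of 0 allows. Low values were in general rare, since 23010 of the 23352 tested transcripts had over 2 counts in all 12 libraries.

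**Figure D2:**
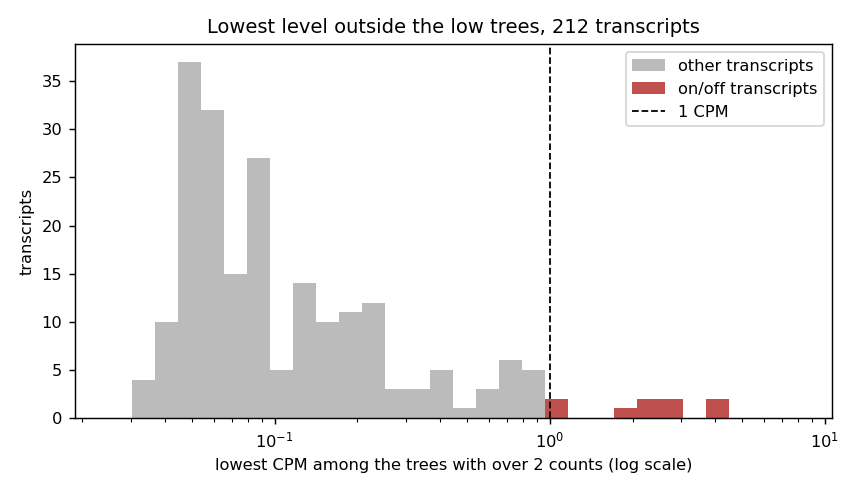
Histogram of the 212 transcripts with at most 2 counts in 2 or more trees and at least 1 CPM in 2 or more trees, by their lowest CPM among the trees with over 2 counts (logarithmic axis). The 9 on/off transcripts (red) lie at or above 1 CPM by the rule (dashed line), and the 203 others (grey) reach up to 0.95 CPM.

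A further 9 transcripts missed the rule because a single tree was off. They were off in bluish tree 1 (ap_10651 and ap_68061), bluish tree 3 (ap_393), bluish tree 6 (ap_73524 and ap_7592), green tree 2 (ap_46134) and green tree 6 (ap_21886, ap_57993 and ap_60781). In the other 11 trees ap_393 was at 6.23 CPM or more. Best hits were given for ap_46134, a TIR domain protein of Sitka spruce (*Picea sitchensis*), a domain of many plant resistance proteins, and for ap_60781, a subunit of photosystem I. No tested transcript was on in exactly 1 tree, as the filter required 2 libraries at 2 CPM.

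Transcript ap_23494 split the trees by colour. Its counts in bluish trees 1 to 6 were 252, 196, 249, 172, 248 and 194, and it had 0 counts in each of the 6 green trees. The levels in bluish trees lay between 2.60 and 3.79 CPM, with 3.07 ± 0.509 CPM (SD, n = 6), and no green tree overlapped them. Set against 6 counts over the 6 green libraries together, bluish trees had at least 241-fold higher levels of ap_23494. The fitted logFC of 10.85 (SE 0.460) depends on the prior count given to the green trees. FDR over all transcripts tested was 2.43e-04 in the quasi-likelihood test of edgeR (Benjamini-Hochberg). The rule chose ap_23494 by these same counts, as near-absent in some trees and clearly counted in all others, and it passed the 2 CPM filter through bluish trees only. Its fold and FDR are thus not independent evidence. The coefficient of variation among bluish trees was 16.6%, and the 4666 transcripts at 2 to 5 CPM in bluish trees had a median of 24.5%, with quartiles of 17.7 and 35.0%.

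Transcript ap_5673 had the state of ap_23494 in 11 of the 12 trees. Its counts in bluish trees 1 to 6 were 889, 532, 819, 381, 838 and 484. In green trees it had 0, 2, 0, 0 and 0 counts in trees 1 to 5 and 280 counts in tree 6. Levels in bluish trees reached from 5.75 to 13.4 CPM, and green tree 6 lay below all of them with 4.24 CPM, so that the colours did not overlap. The means were 9.23 ± 3.06 CPM in the bluish and 0.710 ± 1.73 CPM in the green trees (SD, n = 6), with logFC 3.73 (SE 1.35). The unadjusted p was 0.016 and FDR was 0.773 by the quasi-likelihood test in edgeR (Benjamini-Hochberg), so ap_5673 was not called by this test. Green tree 6, the only green tree where ap_5673 was on, decided this value. Without it the logFC was 10.46 with FDR = 6.47e-06 by the same edgeR test. Leaving out the only green tree that was on gives a full split by colour in advance, so this smaller FDR is no evidence for colour.

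A group of 3 transcripts was off in 2 trees and on in 10. Transcript ap_14392, the class IV chitinase hit, had 283, 390, 221, 153, 95 and 76 counts in bluish trees 1 to 6. In green trees 1 to 6 it had 256, 0, 284, 183, 166 and 2 counts. It was thus on in every bluish tree and off in green trees 2 and 6. Over the 10 trees where it was on, its level was 2.86 ± 1.35 CPM (SD), with a 4.80-fold range from 1.09 CPM in bluish tree 6 to 5.22 CPM in bluish tree 2. The colours overlapped at 2.87 ± 1.67 CPM in the bluish and 1.90 ± 1.62 CPM in the green trees (SD, n = 6), with logFC 0.60 (SE 0.916), which lay between 0.33 without green tree 2 and 0.94 without green tree 3.

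Transcript ap_10599 had 535, 311, 490, 421, 663 and 1367 counts in bluish trees 1 to 6. Its counts in green trees 1 to 6 were 484, 0, 0, 1262, 1016 and 470. All bluish trees were on, and green trees 2 and 3 were at 0. Where it was on, levels ranged 4.70-fold from 4.16 CPM in bluish tree 2 to 19.6 CPM in bluish tree 6. Bluish trees were at 8.90 ± 5.43 CPM and green trees at 6.76 ± 6.19 CPM (SD, n = 6), and logFC was 0.40 (SE 1.00). Single trees moved this logFC from 0.00 (without bluish tree 6) to 0.82 (without green tree 4). States of ap_10599 and ap_14392 matched in 10 of the 12 trees, and green tree 2 was off for both.

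Transcript ap_14941 was off in bluish instead of green trees. It had 262, 220, 0, 211, 212 and 0 counts in bluish trees 1 to 6 and 203, 214, 215, 541, 1080 and 317 counts in green trees 1 to 6. Bluish trees 3 and 6 were thus at 0, the other 4 bluish trees lay between 2.63 and 3.94 CPM, and green trees 4 and 5 stood above all others with 6.57 and 12.7 CPM. The green trees 1 to 3 lay within the range of the bluish trees that were on or just below it. Means were 2.12 ± 1.69 CPM in the bluish and 5.34 ± 3.92 CPM in the green trees (SD, n = 6), and logFC was −1.34 (SE 0.942), or −0.87 without green tree 5.

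Transcript ap_77726 was on in trees of both colours in nearly equal number. Its counts in bluish trees 1 to 6 were 281, 221, 244, 70, 2 and 0, and in green trees 1 to 6 they were 0, 0, 268, 344, 0 and 150. It was on in 4 bluish and 3 green trees, with levels from 1.06 CPM in bluish tree 4 to 4.22 CPM in bluish tree 1. The logFC of 0.22 (SE 1.45) was small beside its error, and it took values from −0.16 to 0.72 when each tree was left out in turn, with a negative sign without bluish tree 1 or 3 or green tree 1, 2 or 5.

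Another 3 transcripts were on in 2 trees. Transcript ap_31651 had 9758 counts in green tree 3 and 259 counts in green tree 5, and at most 2 counts in each other tree. In CPM these were 134 and 3.04, a 44.1-fold difference between the only trees that were on. Transcript ap_24381 had 249 and 210 counts in the same green trees 3 and 5 and 0 counts in the other 10. Its levels of 3.42 and 2.46 CPM differed 1.39-fold, so that these transcripts shared their trees and not the ratio between them. Transcript ap_72267 had 200 counts in bluish tree 5 and 164 counts in green tree 4, or 2.48 and 1.99 CPM, and 0 counts elsewhere.

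Group means say little of these transcripts, since 4 to 6 trees of each colour were off. The fitted logFC was −10.74 (SE 2.91) for ap_31651 and −9.20 (SE 3.11) for ap_24381, both of which depend on the prior count given to trees at 0. Unadjusted p-values were 0.003 and 0.018, and both had FDR = 0.773 by the quasi-likelihood test in edgeR (Benjamini-Hochberg). With 6 counts over the 6 bluish libraries as the limit, ap_24381 was at least 69.5-fold higher in the mean of green trees, of which 4 of 6 were at 0. For ap_72267 logFC was 0.32 (SE 1.94), with 0.05 to 0.07 when an off green tree was left out and 0.58 when an off bluish tree was. The exact test in edgeR with transcript-wise dispersions called ap_23494, ap_31651 and ap_24381 (Benjamini-Hochberg FDR = 0.0221 for ap_31651 and ap_24381 alike), where it called 0.0985% of all transcripts. DESeq2 called ap_23494 and ap_24381 (FDR = 4.11e-11 for ap_24381), where it called 0.0942% of all transcripts, and gave no adjusted p for ap_31651 and ap_72267. The logFC of ap_24381 in DESeq2 was −23.6, against −9.20 in the quasi-likelihood fit, with 4 of 6 green trees at 0. With a common dispersion, which leaves out differences in spread between transcripts, the exact test called 5 of the 9, where it called 1.94% of all transcripts. These were ap_23494, ap_24381 and ap_31651, and also ap_5673 (Benjamini-Hochberg FDR = 2.92e-29) and ap_14941 (FDR = 2.52e-04).

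**Figure D3:**
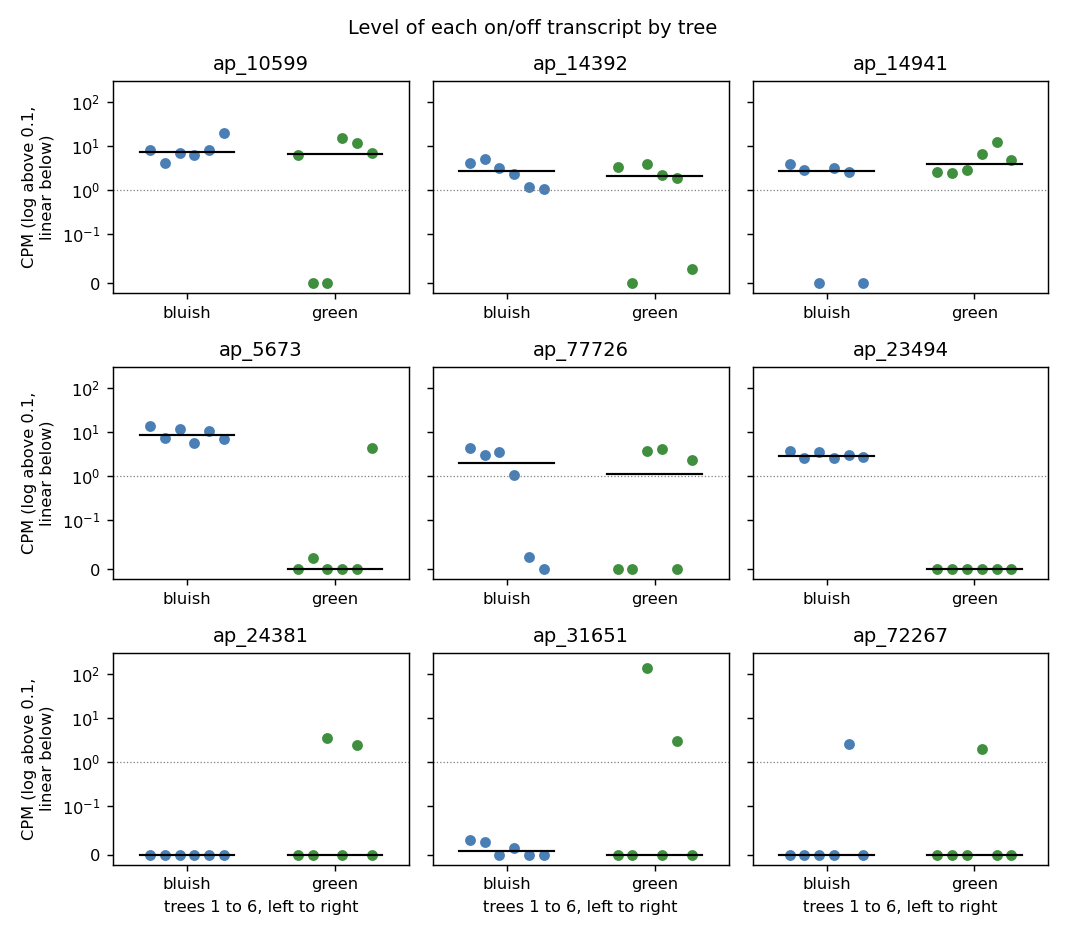
Level of each on/off transcript in the 6 bluish (blue points) and 6 green trees (green points), trees 1 to 6 from left to right within a colour, as TMM-scaled CPM on an axis that is logarithmic above 0.1 and linear below, with the median as a black bar and a dotted line at 1 CPM. The colours do not overlap for ap_23494 and ap_5673, while in the other 7 panels trees of both colours share the off or the on level.

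Read over the 9 transcripts, 1 (ap_23494) was called by colour in the quasi-likelihood test in edgeR, where 0.00428% of all transcripts tested were called. Before adjustment, 4 of the 9 (ap_23494, ap_5673, ap_24381 and ap_31651) had p under 0.05, as did 6.33% of all transcripts. The bluish and green trees did not overlap for 2 of the 9, against 0.206% of all transcripts. The rule asked for near-absence in some trees and clear counts in all others of these same libraries, which can favour large differences. Shares over all transcripts, here and above, are thus not a like reference for the 9. Transcripts ap_23494, ap_24381 and ap_31651 also passed the 2 CPM filter through trees of a single colour. Of the 9, 6 had a positive and 3 a negative logFC, with a median of 0.32 (the value of ap_72267), and the median of all transcripts tested was −0.00. For the 5 transcripts ap_10599, ap_14392, ap_14941, ap_72267 and ap_77726, adjusted values lay between 0.846 and 0.989 in the quasi-likelihood test in edgeR (Benjamini-Hochberg).

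How far the level varied among trees that were on differed between transcripts. The highest level was 1.25 times the lowest for ap_72267, 1.39 times for ap_24381 and 1.46 times for ap_23494. It was 3.15 times for ap_5673, 4.00 times for ap_77726, 4.70 times for ap_10599, 4.80 times for ap_14392 and 5.11 times for ap_14941. The widest range among the 9 was that of ap_31651, from its 2 trees. Levels of different transcripts were not ranked, because CPM does not account for transcript length and lengths were not used here.

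The states shared by pairs of trees differed between the colours. In the 15 pairs of bluish trees, a median of 7 of the 9 transcripts had the same state (range 6 to 9). In the 15 pairs of green trees the median was 5 (range 4 to 7), close to the median of 4 (range 2 to 7) in the 36 pairs of different colour. Bluish trees 1, 2 and 4 shared all 9 states with each other, and no other pair of trees did. These pairs share trees and the transcripts include ap_23494 and ap_5673, which carry the colour. Transcripts ap_24381 and ap_31651 have the same pattern, which is thus counted 2 times, and within a colour their state differs among green trees only. The medians are therefore a description.

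The number of on/off transcripts that were on also differed between trees. Bluish trees 1 to 6 had 6, 6, 5, 6, 6 and 4 of the 9 on, and green trees 1 to 6 had 3, 1, 5, 5, 5 and 4. Green tree 2 had ap_14941 alone, with 8 transcripts off. Its library was the deepest of the 12, with 91973481 counts, and it held the most tested transcripts at or under 2 counts, 125 against 41 to 100 in the other 11 libraries. The part of green tree 2 in the result was not tested beyond leaving it out, which kept the direction of the logFC of all of the 9 but ap_77726.

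Pairs of on/off transcripts were compared by their states over the 12 trees. In the 36 pairs, the number of trees with the same state had a median of 5 and ranged from 2 to 12. After ap_24381 and ap_31651, the closest pair was ap_5673 and ap_23494 with 11 trees. No pair was opposite in all trees.

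For each on/off transcript, the transcripts with the most similar and the most opposite levels over the 12 trees were taken by Pearson's r on log2(CPM + 0.5). These values describe 12 trees and 23352 transcripts, in which high values of r are found by search, and no test was made. For ap_10599 the most similar was ap_70923 (r = 0.94), with a best hit to a reverse transcriptase domain protein of beech, the enzyme domain of retrotransposons. It was at 12.5 to 72.3 CPM where ap_10599 was on and at 0.0232 and 0.137 CPM in green trees 2 and 3. For ap_77726 the most similar was ap_17780 (r = 0.93), whose best hit also holds a reverse transcriptase and RNase H domain. It was at 1.33 to 7.85 CPM in the 7 trees where ap_77726 was on and at 0 to 0.141 CPM in the other 5.

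Dual-specificity kinase fragments, with a best hit in the cactus *Opuntia streptacantha*, were most similar to both transcripts that followed colour. Dual-specificity kinases add phosphate to serine or threonine and to tyrosine residues. Transcript ap_61126 (r = 0.91 with ap_5673) was at 3.39 to 4.55 CPM where ap_5673 was on and at 1.87 to 2.89 CPM where it was off. Transcript ap_5445 (r = 0.91 with ap_23494) was at 4.00 to 5.65 CPM in bluish and at 2.40 to 3.28 CPM in green trees. These partners were on in all trees, and the next most similar to ap_23494 was ap_5673 itself (r = 0.91).

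Opposite levels were found with ap_23494 for ap_12681 (r = −0.90), with a best hit to a lecithin:cholesterol or phospholipid:diacylglycerol acyltransferase, enzymes that move acyl groups from phospholipids in lipid metabolism. It was at 4.78 to 7.79 CPM in the bluish and 8.12 to 12.04 CPM in the green trees. Its logFC was −0.88 with FDR = 0.369 by the quasi-likelihood test in edgeR (Benjamini-Hochberg). Of the fits with a tree left out, only that without bluish tree 4 called it, with logFC −1.01 and FDR = 0.0205. As ap_12681 was searched out by its opposition to ap_23494, which split the trees by colour, these values are no independent evidence of a colour difference. For ap_5673 the most opposite was ap_72366 (r = −0.90), an uncharacterized protein of white spruce, at 1.09 to 1.69 CPM where ap_5673 was on and 2.25 to 4.61 CPM where it was off. This held in green tree 6 too, which was on for ap_5673.

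The transcripts on in 2 trees had the closest partners. Transcript ap_35145, without a database hit, followed ap_31651 with r = 0.996, at 7.37 and 268 CPM in the trees that were on and at most 0.0991 CPM in the others. For ap_24381 it was ap_71778 (r = 0.95), with a DUF4216 domain of unknown function, at 2.10 and 2.65 CPM against at most 0.388 CPM. For ap_72267 it was ap_23593 (r = 0.97), at 2.89 and 3.65 CPM against at most 0.363 CPM. The most opposite to ap_24381 was ap_17781 (r = −0.95), at 0.469 and 0.755 CPM in green trees 3 and 5 and 4.10 to 8.74 CPM in the other 10 trees. For ap_31651 it was ap_70914 (r = −0.97), at 3.73 and 8.44 CPM in those trees and 9.24 to 12.5 CPM elsewhere.

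The most similar transcripts of the other members varied within narrow ranges. For ap_14392 it was ap_7079 (r = 0.90), at 48.9 to 76.5 CPM where the chitinase hit was on and 45.4 to 47.8 CPM in green trees 2 and 6. For ap_14941 it was ap_10371 (r = 0.92), at 14.3 to 19.3 CPM where ap_14941 was on and 11.8 to 12.4 CPM in bluish trees 3 and 6. The most opposite to ap_14941 was ap_28932 (r = −0.90), at 2.19 to 4.25 CPM where it was on and 4.82 to 5.30 CPM where it was off. None of these had a description in the annotation used.

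**Figure D4:**
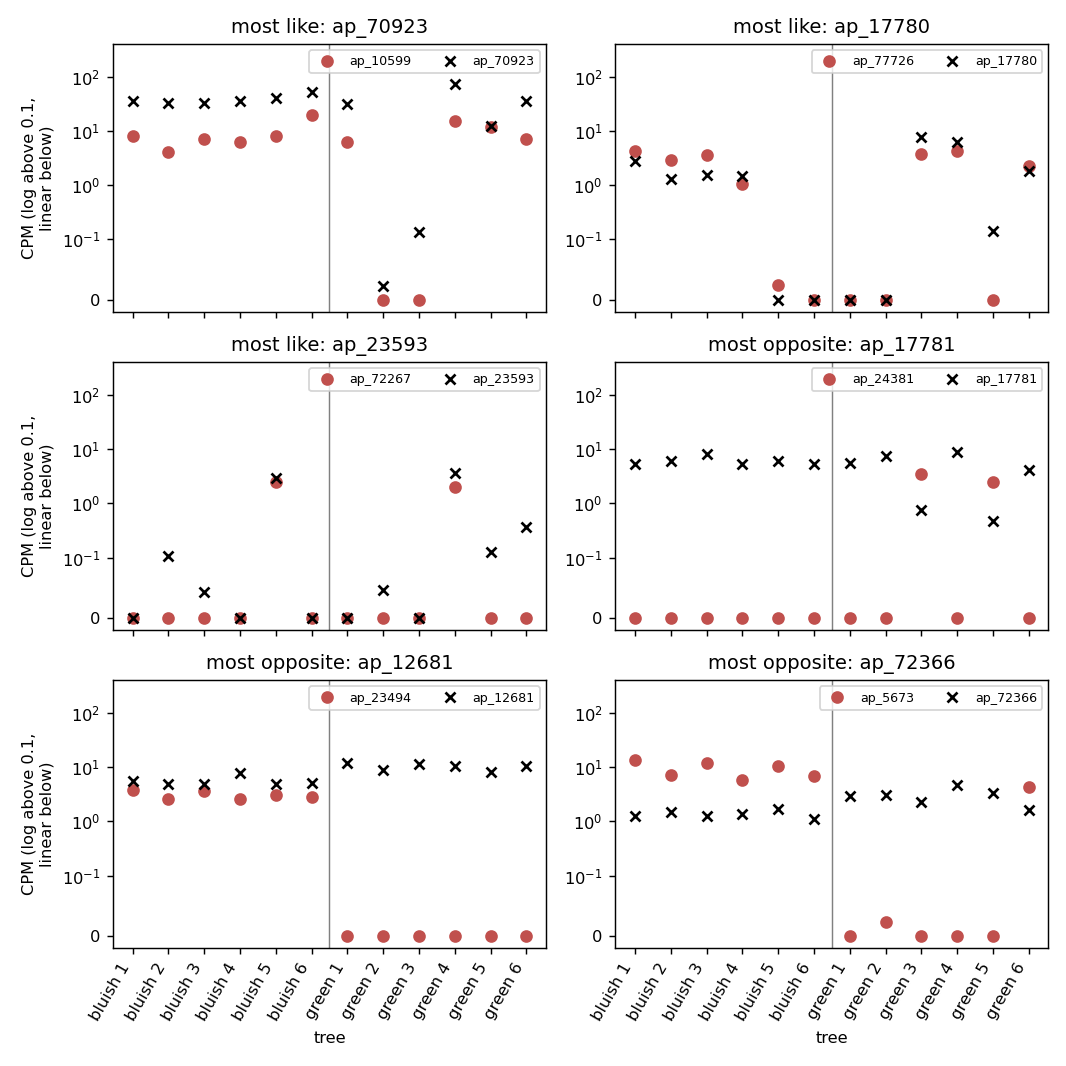
Levels of 6 on/off transcripts (red points) and of the transcript most similar or most opposite to each (black crosses) in bluish trees 1 to 6 and green trees 1 to 6, as TMM-scaled CPM on an axis that is logarithmic above 0.1 and linear below. The reverse transcriptase hit ap_70923 drops with ap_10599 in green trees 2 and 3 to at most 0.137 CPM, and ap_12681 is below 8 CPM in the bluish trees where ap_23494 is on and above 8 CPM in the green trees.

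A looser search over all 76481 transcripts asked for at most 2 counts in every tree where a member was off and over 6 counts in every tree where it was on. It found 0 further transcripts for ap_23494 and ap_5673, 2 each for ap_10599 and ap_14392, 4 for ap_77726 and 9 for ap_14941. Among them, ap_74668, with a best hit to an LRR receptor-like kinase of grapevine, followed ap_10599 with 12 to 2891 counts where on. Transcript ap_1285, with a best hit to an endonuclease-reverse transcriptase of a green alga, had the pattern of ap_77726. None of the transcripts found for these 4 members was above 1 CPM in every tree where the member was on.

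The opposite pattern was over 6 counts where a member was off and at most 2 counts where it was on. For ap_23494 it was found in 1 transcript, ap_76769, with 10 to 63 counts in the 6 green trees and at most 2 counts in the bluish trees. For ap_5673 it was ap_27833, with 8 to 22 counts in green trees 1 to 5. Neither reached 2 CPM in 2 libraries, so they were not tested. For ap_10599, ap_14392 and ap_14941 there were 15, 10 and 7 such transcripts, and for ap_77726 there were 0. As ap_10599, ap_14392 and ap_14941 were off in 2 trees, these transcripts were those counted only in that pair of trees. Over all 66 pairs of trees, the median number of such transcripts was 13. For these members 0 were tested, and 1, 0 and 0 reached 1 CPM.

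Larger groups, mostly of transcripts that stayed below 1 CPM, shared the patterns with 2 trees. Over all transcripts, 1325 had over 6 counts in exactly 2 trees and at most 2 counts in the other 10, with a median of 13 for each of the 66 pairs of trees. Green trees 3 and 5 held 53 of them, ap_24381 and ap_31651 included, and bluish tree 5 and green tree 4 held 61, ap_72267 included. The most, 145, belonged to green trees 4 and 5. Of the 52 that shared the pattern of ap_31651, 15 reached 1 CPM in a tree. Among these 52, 2 were over 1 CPM in both trees and 1 was tested, with ap_24381 included in each. In all, 8 transcripts had the pattern opposite to that of ap_24381 and ap_31651, among them ap_4633, with a best hit to a BAHD acyltransferase of yew, a family of enzymes of plant secondary metabolism. The 44.1-fold difference of ap_31651 between green trees 3 and 5 was not the widest of the 53, since the CPM of green tree 3 was 70.4 times that of green tree 5 for ap_35321 and 56.2 times for ap_79650. The lowest of the 53 ratios was 0.345 for ap_40153. Between bluish tree 5 and green tree 4, the ratios of the 61 transcripts ranged from 0.227 to 2.30, with a median of 1.02. Of the 60 beside ap_72267, 1 reached 1 CPM and 0 were tested. The search asked for over 6 counts in both trees, and counts just above that limit give ratios near 1.

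**Figure D5:**
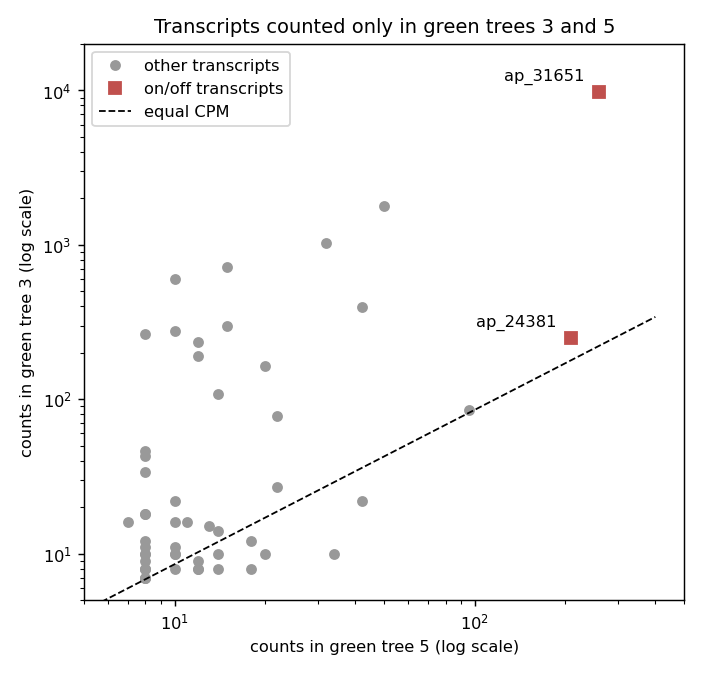
Counts in green tree 3 against counts in green tree 5 (both axes logarithmic) of the 53 transcripts with over 6 counts in these trees and at most 2 counts in each other tree, with a dashed line where CPM is equal. Transcript ap_24381 lies near the line with 249 and 210 counts, and ap_31651 lies above it with 9758 and 259 counts.

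The chitinases named in the study's text or supplement were compared with ap_14392. Of 5 tested, 0 were called by the quasi-likelihood test in edgeR and 0 by DESeq2, 2 (ap_10285 and ap_21337) had an unadjusted p under 0.05, and 2 had over 2 counts in all trees. Over all transcripts tested, the quasi-likelihood test called 0.00428% and gave 6.33% an unadjusted p under 0.05, and DESeq2 called 0.0942%. The study chose the chitinases on these trees, so their direction is not independent evidence and these shares are not a like reference. The class I chitinase hit ap_76190 was at 0 in green tree 3 and at 0.121 to 46.9 CPM in the other trees, with the highest level in green tree 1. Transcript ap_84941 had at most 2 counts in 5 trees and reached 603 counts in green tree 1. Levels between the limits thus kept ap_76190 and ap_84941 outside the rule, and ap_76190 also had only 1 tree off. For both, the range among trees was wider than that of ap_14392. Transcripts ap_10285 and ap_21337 were counted in all 12 trees, at 0.765 CPM or more and 0.202 CPM or more.

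Of the 5 transcripts listed under response to oxidative stress, 1 (ap_23494) was called by the quasi-likelihood test in edgeR, where 0.00428% of all transcripts tested were called. All 5 had a positive logFC, from 1.16 to 10.85. The study listed them on these trees, so their direction is not independent evidence and that share is not a like reference. The other 4 were not on/off. Transcript ap_22874 had at most 2 counts in 4 green trees and 6 to 228 counts in the bluish trees, with 36 and 16 counts in green trees 1 and 4. Transcript ap_76368 ranged from 2 counts in bluish tree 2 to 9365 counts in bluish tree 6. Transcripts ap_6855 and ap_2830 were counted in all trees.

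Transcripts with best hits outside conifers were checked beside these results, since needles of field trees can carry other organisms. The 15 transcripts with a green alga as best hit summed to 20.6 to 46.8 CPM in the bluish and 36.9 to 206 CPM in the green trees, with the highest sum in green tree 4. The 58 with a hit to *Carpinus fangiana* summed to 46.0 to 138 CPM and 57.8 to 545 CPM, and the 31 with a hit to *Anthurium amnicola* to 84.6 to 145 CPM and 92.3 to 239 CPM. By the quasi-likelihood test in edgeR 0 transcripts of the 3 lists were called, and 9, 29 and 13 had an unadjusted p under 0.05. DESeq2 called 3 of the green alga list and 0 of the others. Over all transcripts tested, the quasi-likelihood test called 0.00428% and gave 6.33% an unadjusted p under 0.05, and DESeq2 called 0.0942%. The 3 lists come from transcripts that the study chose on these trees. Their direction is thus not independent evidence, and the shares over all transcripts are not a like reference. No on/off transcript was in the 3 lists, and 13, 55 and 28 of their transcripts had over 2 counts in all trees. The green alga list includes ap_1285, which had the pattern of ap_77726 by the looser rule. The part of these lists in the on/off patterns was not tested.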

How the data were processed

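RNA-seq libraries of needles from 6 bluish and 6 green trees were analysed, with the colour taken from the library labels. The deposited values are raw counts of reads per assembled transcript, which the authors made by trimming with SeqTrimBB, assembling with Trinity, mapping read pairs onto the contigs (BWA MEM) and counting (sam2counts). Where a read maps equally well to similar contigs, its count may fall on either of them, so contigs of alleles or gene families can divide their reads. Of counts from 1 to 29, 76.0% were even, and the precision follows the depth given with the results.

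Transcripts with at least 2 CPM in 2 or more libraries were kept. Colour was tested by the quasi-likelihood test of edgeR 4.0.16 (limma 3.58.1, R 4.3.3) with TMM factors, no other term and Benjamini-Hochberg adjustment over all transcripts tested, and calls needed FDR under 0.05 and |logFC| over 1. A positive logFC means higher in bluish trees. Each SE was obtained as |logFC| over the root of the F statistic. As alternatives, the exact test of edgeR (common or transcript-wise dispersion), DESeq2 1.42.0, no TMM factors, RLE factors, filterByExpr, no filter, the tree number as a block, each library left out, and other limits for on and off were tried. For single transcripts, the common dispersion, RLE factors and filterByExpr were added after seeing the data. Python 3.11.15 was used for tables (pandas 2.3.3, numpy 2.4.6) and plots (matplotlib 3.10.9).

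The on/off transcripts and the lists were chosen with earlier results of these data known. Transcripts named beside them were those nearest the rule's limits, the 2 most similar and the most opposite over the 12 trees, those with the same or opposite pattern by the looser rule, and the lists of chitinases, oxidative stress and organisms of the best hit. Within the looser patterns, those with a description or an extreme value were named after their values were seen. Descriptions came from the study's supplement. Whether trees were related is not given in the sources used here. The p-values set the difference between colours against the spread estimated between these trees. With a common dispersion, that spread is a single value for all transcripts. Sequences and transcript lengths were not used here.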

Additional observations from a re-analysis of the deposited data

Results flagged for a closer look

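In 16 groups of 6 trees with any count, the highest or lowest tree was compared with the nearest of the other 5, and a tree was listed where the gap as a share of the group's range exceeded Dixon's 95% critical value. Such a gap is found by chance in about 1 in 20 groups, and an on/off transcript with a single tree on in a colour gives it by construction. For ap_10599, bluish tree 6 reached 19.6 CPM, above 8.21 CPM in the next bluish tree. For ap_5673, green tree 6 was at 4.24 CPM and the next green tree at 0.0232 CPM. For ap_31651, green tree 3 was at 134 CPM and the next green tree at 3.04 CPM. For ap_72267, bluish tree 5 reached 2.48 CPM and the other 5 bluish trees 0. In green trees it was tree 4, with 1.99 CPM, and the other 5 were at 0.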

How the results depend on the processing

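Of the 9 on/off transcripts, the call of ap_23494 and the direction of its logFC were the same under each alternative named in the methods except the replicate block, with the common dispersion, RLE factors and filterByExpr added for single transcripts after seeing the data. Tree numbers did not pair the samples (r of same-numbered trees −0.17 to 0.11), and with the number as a replicate block 0 transcripts were called and ap_23494 had logFC 10.84 with FDR = 0.811 (edgeR). Against 1 transcript called in the whole table, the exact test of edgeR called 453 with a common dispersion and 23 with a dispersion for each transcript, DESeq2 called 22, filterByExpr left 3 called, and leaving out each tree gave 1 to 2, with 2 called without bluish tree 4 (ap_12681 added) or green tree 6 (ap_5673 added). The causes were not tested. The number of on/off transcripts, 9, depended on the limits: 5 with off at 0 counts, 22 with off at up to 6 counts, 24 with on from 0.5 CPM, 3 with at least 3 trees on each side, 18 with at least 1, and 7 to 15 with each tree left out (14 without bluish tree 2, 15 without bluish tree 4 or 6). For ap_77726, logFC changed sign when a tree was left out, between −0.16 and 0.72 (−0.16 without bluish tree 1, −0.03 without bluish tree 3, −0.04 without green tree 1, and −0.05 without green tree 2 or 5). Of 3 transcripts on in 2 trees (ap_24381, ap_31651 and ap_72267), no fit was had without either of these trees, as they then missed the filter, or under filterByExpr. At this depth, levels under 0.0695 to 0.0908 CPM cannot be told from 0.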
